A study of Mus musculus with 13 samples.

Results

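Gadd45a, Cdkn1a, Ccng1, Plk2, Sesn1, Mdm2, Trp53inp1, Fas, Bbc3 and Bax are targets of the transcription factor p53 that act in cell cycle arrest, in cell death or on p53 itself. Their expression was followed in mouse cortical neurons exposed to rotenone, which blocks complex I, the first enzyme of mitochondrial respiration. Probes were taken where the description in the deposited signal table gives one of the 10 symbols, or an older alias, in brackets (Fas is listed there as Tnfrsf6). This gave 16 of 24613 probes with a signal, for 10 of 17854 genes with a named probe. A further 9 probes that hold such a symbol only inside another gene's full name were left out. Of the 16 probes 14 were detected on at least 3 arrays, and every one of the 10 genes had such a probe, so all 10 were among the 11063 genes tested. The tested probe was detected on all 13 arrays for 9 genes and on 11 arrays for Bbc3.

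Cortical neurons were taken from Swiss albino mouse fetuses at gestation day 15 to 16 and used on day 5 of culture. They received vehicle (control, n = 4) or rotenone at 10 nM for 8 h (n = 3), 15 h (n = 3) or 24 h (n = 3), and each RNA sample was read on 1 Illumina mouse bead array. Their number limits the precision of every value below. The labels do not say whether the samples of a group were separate cultures, so the p-values cover the spread between the samples as deposited, which may be technical. The sources used here do not give the hour at which vehicle cells were collected, and drug and time in culture cannot be told apart in a change against control.

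The protein p53 is held at a low level by the ubiquitin ligase Mdm2 and is stabilised by damaged DNA and other stresses. It then binds a pair of half-sites near its targets and raises their transcription, and Mdm2 is itself a target, which closes a feedback loop. In dividing cells the arrest targets hold the cell cycle. In neurons, which no longer divide, p53 is best known for its death targets, which act through death receptors or through the outer mitochondrial membrane.

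Total signal fell over the time course, which bears on every change given here. The mean probe signal of an array was 325 to 405 in controls, 340 to 403 at 8 h, 255 to 287 at 15 h and 222 to 259 at 24 h, while 50.4% to 53.3% of probes were detected. Changes are given first with quantile scaling, which gives every array the same distribution of values, and then with median scaling, which only sets the arrays' medians equal. Under median scaling the median change of all genes was −0.16 on the log2 scale at 15 h and −0.25 at 24 h. At 15 h 1410 genes were called higher and 4564 lower under median scaling, and 2814 and 2730 under quantile scaling. At 24 h the counts were 1501 and 5384 under median scaling, and 3031 and 3022 under quantile scaling. In bulk RNA, fewer cells of a type and less RNA per cell cannot be told apart.

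Markers of several cell types moved over the same times. The summed level of 8 tested neuron markers was 18629 to 21787 in controls, 18550 to 21128 at 8 h, 4351 to 7549 at 15 h and 5610 to 5969 at 24 h. At 24 h 7 of the 8 fell (Syp −2.68 and Stmn2 −1.79 on the log2 scale), and Snap25 was not detected in controls or at 8 h. The 8 astrocyte markers summed to 14176 to 16137 in controls, 9929 to 14608 at 8 h, 29945 to 35586 at 15 h and 26478 to 27839 at 24 h, when 5 rose and 2 fell. The 7 microglia markers summed to 1079 to 1218 in controls, 1064 to 1135 at 8 h, 1934 to 2821 at 15 h and 3554 to 3746 at 24 h, when 5 rose. For 4 fibroblast markers the sums were 2075 to 2811 in controls, 1919 to 2378 at 8 h, 5639 to 6506 at 15 h and 10127 to 11185 at 24 h, when 2 rose and 2 fell. Most of the 24 h sum was Acta2, a contractile gene, with a mean log2 level of 13.27, against 6.93 to 8.45 for the others. At 24 h Acta2 rose by 3.53 and Fn1 by 1.89, whereas Pdgfra fell by 3.24 and Dcn by 0.49. For 7 oligodendrocyte markers they were 10454 to 11355 in controls, 6717 to 8915 at 8 h, 8667 to 12594 at 15 h and 4223 to 4641 at 24 h, when 1 rose and 5 fell. The neuron sum was thus lower, and the astrocyte, microglia and fibroblast sums higher, at both later times than in controls, although Snap25 rose at 15 h (0.20, adjusted p = 0.00256). Under median scaling 1 neuron marker rose and 7 fell at 24 h, 2 astrocyte markers rose and 2 fell, 4 microglia markers rose and 6 oligodendrocyte markers fell. With quantile scaling the astrocyte sum at 24 h was mostly Slc1a3 and Gja1, with mean log2 levels of 13.32 and 13.28. The 2 astrocyte markers that fell were Sox9 (−0.92) and Aqp4 (−0.49). The oligodendrocyte sum in controls was mostly Olig1, at 13.23 against 6.44 to 9.10 for the others. With 1 of 5 endothelial markers tested, that cell type was not followed. The part of these shifts in the changes of the p53 targets was not tested.

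At 8 h none of the 10 p53 targets passed limma's test (3 had an unadjusted p under 0.05), at 15 h 7 rose and 1 fell, and at 24 h 7 rose and 2 fell. A gene was called where limma's adjusted p over all 11063 genes was under 0.05. By this rule 0.434% of all genes were called at 8 h (0.145% higher, 0.289% lower), 50.1% at 15 h (25.4% higher, 24.7% lower) and 54.7% at 24 h (27.4% higher, 27.3% lower). The median change of the 10 targets was −0.05 at 8 h, 0.75 at 15 h and 1.10 at 24 h on the log2 scale, beside −0.00, 0.02 and 0.01 for all genes. Under median scaling none was called at 8 h either (0.154% of all genes higher, 0.289% lower), and 5 rose and 2 fell at 15 h, when 12.7% of all genes were called higher and 41.3% lower. At 24 h 6 rose and 2 fell under median scaling, beside 13.6% of all genes called higher and 48.7% lower. The 3 comparisons share their control arrays. The 10 genes were chosen with results of these data known, so these counts are a description.

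**Figure D1:**
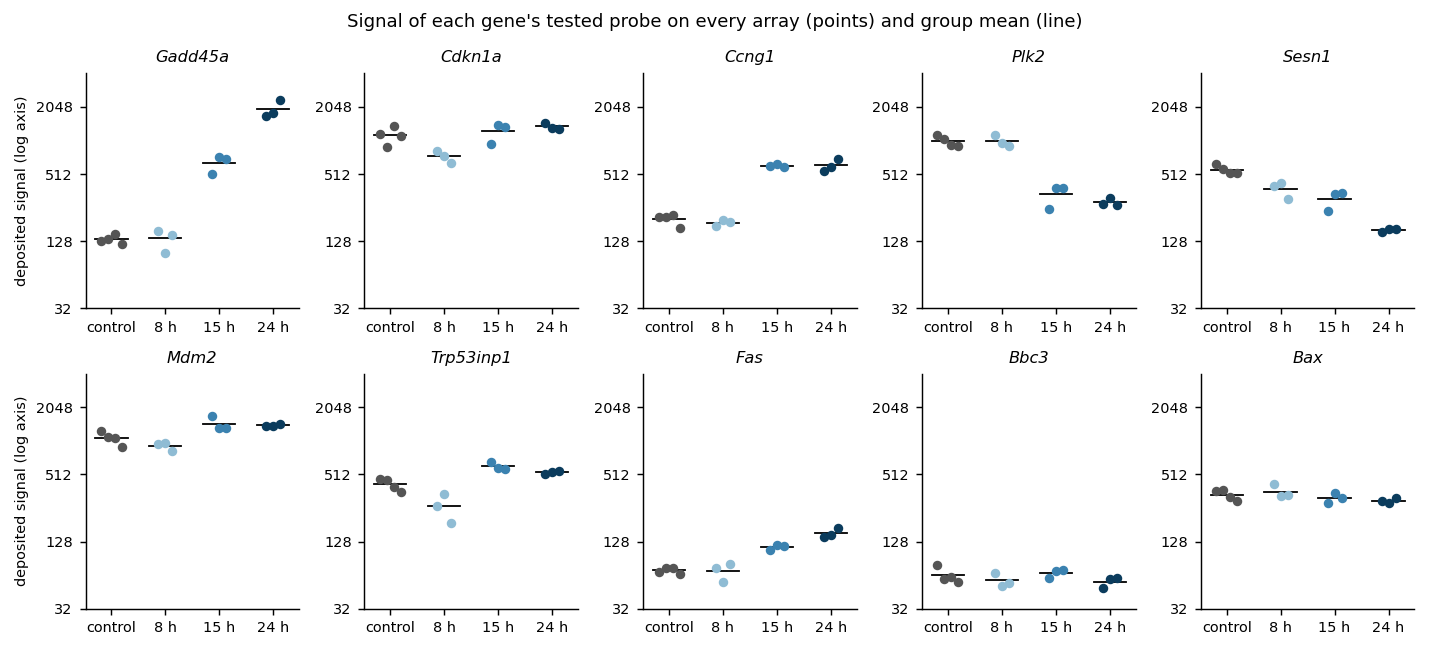
Deposited signal of the tested probe of each gene (log axis) on each of 4 control arrays and 3 arrays per rotenone time, with points for arrays and lines for group means. Gadd45a climbs over 15 h and 24 h, Ccng1 and Fas lie above all controls at both times, and Plk2 and Sesn1 lie below all controls at both. The Bax and Bbc3 points overlap those of the controls at every time.

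Gadd45a, which encodes a stress sensor that slows the cell cycle and feeds into MAP kinase signalling, changed most. Its single probe gave signals of 119.8, 129, 135 and 149.8 in controls and of 101, 147 and 159 at 8 h. The 15 h arrays were at 508, 692 and 721, and the 24 h arrays at 1708, 1816 and 2345. The 8 h arrays overlapped the controls, all 15 h arrays lay above them, and all 24 h arrays lay above all 15 h arrays. At 15 h the gene rose by 2.54 ± 0.11 on the log2 scale (SE, 5.83-fold, adjusted p = 3.27e-10). At 24 h it rose by 4.36 ± 0.11 (20.6-fold, adjusted p = 1.55e-13). By log2 change it ranked 11th from the top of 11063 genes at 15 h and 5th at 24 h. Under median scaling the rises were 2.19 ± 0.16 and 3.82 ± 0.16.

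Ccng1 encodes cyclin G1, which brings a phosphatase to Mdm2. The signal of its brightest probe was 169 to 221 in controls, 174 to 198 at 8 h, 591 to 630.1 at 15 h and 549 to 693 at 24 h. Both later times lay above all controls and overlapped each other in signal. The rise was 2.00 ± 0.10 at 15 h (3.99-fold, adjusted p = 2.23e-09) and 2.22 ± 0.10 at 24 h (4.66-fold, adjusted p = 1.05e-10), and it ranked 34th and 69th of 11063 genes. Under median scaling it was 1.60 ± 0.13 and 1.65 ± 0.13. A second Ccng1 probe rose by 1.88 and 2.23. Its dimmest probe, whose signals of 46.8 to 58.4 were detected on 3 of 13 arrays, was at 0.11 (adjusted p = 0.113 over all kept probes) and 0.07.

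Cdkn1a encodes p21, the inhibitor of cyclin-dependent kinases through which p53 arrests the cycle. Its brighter probe gave 900.2 to 1393 in controls, 647 to 820.2 at 8 h, 958 to 1395 at 15 h and 1307 to 1467 at 24 h. In signal, the 8 h arrays were the only ones to stand apart from the controls, and they lay below all 4. At 8 h the change was −0.59 ± 0.16, which did not pass (adjusted p = 0.126). The second probe stood at 473 to 611 at 8 h and 782 to 1137 in controls, and its change was −0.69 ± 0.13 when probes were tested singly (adjusted p = 0.0284). With median scaling, no scaling, the authors' normalized values, the labels' chip or the replicate number as a block, or only the groups compared, that probe did not pass, nor in 8 of 13 fits that left out an array. With quantile scaling Cdkn1a rose at 15 h (0.69 ± 0.16, adjusted p = 0.0016) and at 24 h (1.09 ± 0.16, 2.13-fold, adjusted p = 2.03e-05). Under median scaling the 24 h rise was 0.40 ± 0.16 (adjusted p = 0.0364), and the 15 h call was lost (0.19 ± 0.16, adjusted p = 0.337). The 15 h call was also lost in the authors' normalized values (0.22) and without scaling (0.10), and the 24 h call without scaling (0.26). At 15 h the second probe was at 0.18 ± 0.13 (adjusted p = 0.254), so the probes differed there, and at 24 h it was at 1.06 ± 0.13.

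Plk2 and Sesn1 went the other way. Plk2 encodes a polo-like kinase that acts at cell cycle checkpoints and, in neurons, in the weakening of synapses. Its signal was 917 to 1152 in controls and 921 to 1142 at 8 h, which overlapped. It was 250 to 387 at 15 h and 270.3 to 311 at 24 h, below all controls. Plk2 fell by 0.97 ± 0.11 at 15 h (adjusted p = 3.94e-06) and by 1.01 ± 0.11 at 24 h (adjusted p = 1.71e-06), and by 1.46 ± 0.15 and 1.62 ± 0.15 under median scaling.

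Sesn1 encodes a sestrin, which limits peroxides and restrains the growth kinase complex mTORC1. Its signal was 519 to 631 in controls, 304 to 427 at 8 h, 238 to 346 at 15 h and 154 to 166 at 24 h. All rotenone arrays lay below all controls, and the 24 h arrays lay lowest. The change was −0.49 ± 0.12 at 8 h (adjusted p = 0.101) and −0.28 ± 0.12 at 15 h (adjusted p = 0.0641), neither past the threshold. Without replicate 2 of the 8 h group both passed (−0.64, adjusted p = 0.00983, and −0.28, adjusted p = 0.0262). The 8 h change also passed without replicate 1 of the 15 h group (adjusted p = 0.0368), and the 15 h change without replicate 3 of that group (−0.35, adjusted p = 0.0469). Sesn1 fell by 0.98 ± 0.12 at 24 h (adjusted p = 3.61e-06). Under median scaling the 15 h change passed as well (−0.75 ± 0.15, adjusted p = 0.000323), and the 24 h fall was −1.52 ± 0.15.

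Mdm2 encodes the ligase that marks p53 for degradation. Its brighter probe gave 898 to 1246 in controls, 822 to 975 at 8 h, 1320 to 1709.7 at 15 h and 1379 to 1450.2 at 24 h. The 15 h and 24 h arrays lay above all controls in signal and under both scalings. The rise was 0.99 ± 0.12 at 15 h (1.99-fold, adjusted p = 7.11e-06) and 1.23 ± 0.12 at 24 h (2.34-fold, adjusted p = 4.89e-07), and 0.50 ± 0.13 and 0.52 ± 0.13 under median scaling. A second Mdm2 probe was detected on no array (44.1 to 53.7) and was not tested.

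Among the death targets, Fas and Trp53inp1 rose. Fas encodes a death receptor that recruits Fadd and caspases when its ligand binds. Its brighter probe gave 66.0, 68.0, 73.9 and 74.1 in controls and 55.3, 73.6 and 81.0 at 8 h. The 15 h arrays were at 107.7, 117.8 and 119.6, and the 24 h arrays at 141, 146 and 168. Each later group lay above all arrays of the groups before it, from 15 h on. Fas rose by 0.82 ± 0.09 at 15 h (1.76-fold, adjusted p = 1.28e-06) and by 1.37 ± 0.09 at 24 h (2.59-fold, adjusted p = 2.55e-09), and by 0.67 ± 0.10 and 1.08 ± 0.10 under median scaling. Its second probe was detected on no array (36.5 to 46.3) and was not tested.

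Trp53inp1 encodes a nuclear stress protein that works with p53 in cell death and takes part in autophagy. Its signal was 354 to 463 in controls, 189.5 to 342 at 8 h, 569.9 to 664 at 15 h and 515 to 551 at 24 h. The 8 h arrays lay below all controls and the later arrays above them. The 8 h change of −0.58 ± 0.16 did not pass (adjusted p = 0.141), and passed without replicate 2 of the 8 h group (−0.81, adjusted p = 0.00692). Trp53inp1 rose by 1.06 ± 0.16 at 15 h (2.08-fold, adjusted p = 4.3e-05) and by 1.12 ± 0.16 at 24 h (2.17-fold, adjusted p = 1.92e-05). Under median scaling the rises were 0.60 ± 0.16 and 0.49 ± 0.16, and without scaling the 24 h call was lost (0.35, adjusted p = 0.0722).

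Bax and Bbc3, whose products take part in opening the outer mitochondrial membrane, gave no change against control that was called under both scalings. Bax encodes the pore-forming protein. Its signal was 296 to 369 in controls, 325 to 419 at 8 h, 281 to 348 at 15 h and 281 to 311 at 24 h, and every rotenone time overlapped the controls. The mean place of its probe among all probes of an array was the 81.2 percentile in controls, 82.2 at 8 h, 84.9 at 15 h and 85.8 at 24 h. With quantile scaling Bax rose by 0.44 ± 0.09 at 15 h (adjusted p = 0.000751) and by 0.56 ± 0.09 at 24 h (adjusted p = 6.85e-05), whereas median scaling put it at −0.00 ± 0.13 and −0.02 ± 0.13, with the sign turned and neither called.

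Bbc3 encodes PUMA, the BH3-only protein that frees Bax from its inhibitors. The brighter probe gave 55.2 to 79.3 in controls, 51.4 to 67.6 at 8 h, 60.6 to 71.7 at 15 h and 49.1 to 59.8 at 24 h, close to the lowest detected signals of 48.6 to 62.3. Every rotenone time overlapped the controls. Its change was −0.05 ± 0.08 at 8 h, 0.17 ± 0.08 at 15 h (adjusted p = 0.0834) and 0.07 ± 0.08 at 24 h (adjusted p = 0.459). The 15 h change passed without replicate 1 of the controls (0.22, adjusted p = 0.0371), without replicate 1 of the 15 h group (0.25, adjusted p = 0.0226) and within matched chip 1 (0.29, adjusted p = 0.0179). A second, equally dim probe was at 0.22, 0.03 and 0.00, so the probes differed in sign at 8 h.

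**Figure D2:**
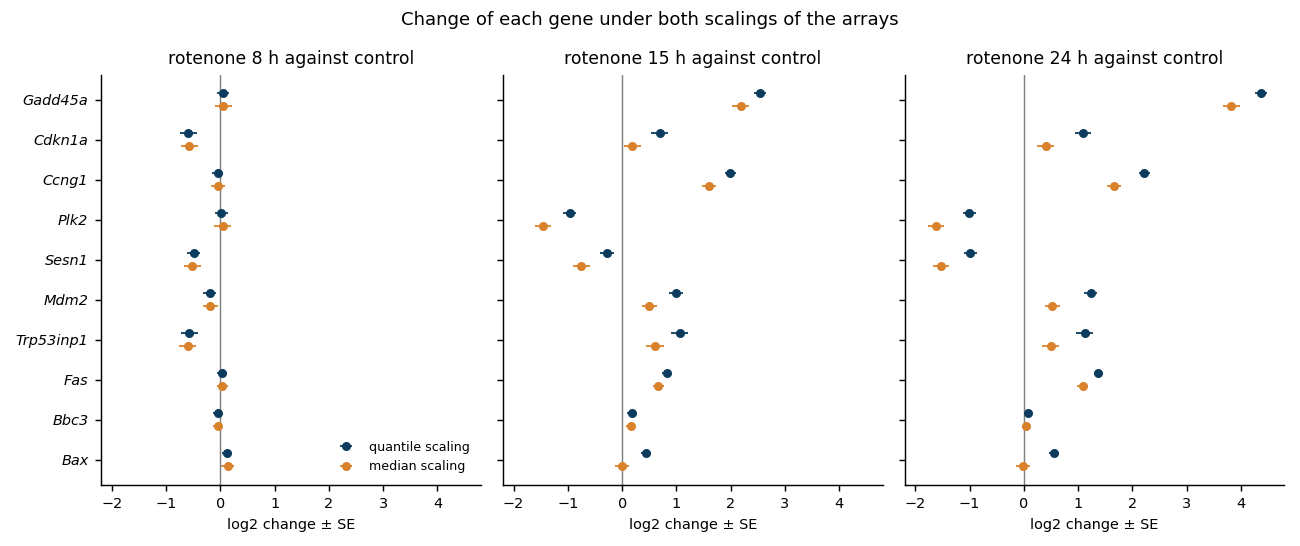
Log2 change of each gene against control at 8 h, 15 h and 24 h with its standard error, in dark blue with quantile scaling and in orange with median scaling. From 15 h on, the orange points lie left of the blue points for every gene, by 0.03 to 0.70 at 24 h. Bax is at 0.56 with quantile scaling and −0.02 with median scaling at 24 h.

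At 8 h the groups separated for 3 of the 10 genes, and all 3 lay below the controls. They were Cdkn1a, Trp53inp1 and Sesn1, which ranked 46th, 52nd and 87th from the bottom of 11063 genes by log2 change. Among all genes 4.37% lay wholly above and 6.99% wholly below the controls at 8 h with quantile scaling. The same 3 lay below with median scaling (3.4% of all genes above, 5.47% below) and in the deposited signal (0.922% above, 5.02% below). With quantile scaling 7 of the 10 lay wholly above the controls at 15 h (25.4% of all genes did) and 2, Plk2 and Sesn1, wholly below (24.7%). At 24 h 7 lay above (30.5% of all genes) and 2 below (30.4%) on that scale. Cdkn1a and Bax did not stand apart on every scale. At 15 h both overlapped the controls with median scaling and in the deposited signal, which left 5 above and 2 below (12.8% of all genes above and 40.1% below with median scaling, 7.16% and 43.8% in signal). At 24 h Bax overlapped with median scaling, which left 6 above and 2 below (14.9% and 49.4% of all genes). In signal both overlapped at 24 h, which left 5 above and 2 below (7.9% and 59.9%).

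The arrays lay on 2 chips, each of which held controls and all rotenone times. The labels and the match of signals to a second deposited table assign the arrays to chips differently, so both were used, as the labels' chips and the matched chips. Each chip held 2 controls but 1 array of at least 1 rotenone time, and such a lone array is assumed to vary like the other groups. The 24 h arm was 1 array on the labels' chip 1 and on matched chip 1, and the 8 h and 15 h arms were 1 array each on the labels' chip 2 and on matched chip 2. At 24 h the same 9 genes were called within each chip under either assignment, 7 higher and 2 lower. Of all genes 27.7% were called at 24 h within the labels' chip 1, 42.5% within the labels' chip 2, 33.5% within matched chip 1 and 63.2% within matched chip 2. The change of Gadd45a at 24 h was 4.34 to 4.40 within single chips, that of Ccng1 2.19 to 2.23, that of Fas 1.34 to 1.40 and that of Plk2 −1.23 to −0.90. Cdkn1a varied most, with 0.62 within matched chip 1, 0.74 within the labels' chip 2, 1.44 within matched chip 2 and 1.53 within the labels' chip 1. At 15 h 7 to 9 of the 10 were called within single chips, beside 32.8% of all genes within the labels' chip 1, 23% within the labels' chip 2, 31.8% within matched chip 1 and 60.9% within matched chip 2. At 8 h 3 of the 10 were called within matched chip 2, from 1 array of that time (13.2% of all genes), and none of the 10 within the other chips.

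Most of the movement fell between 8 h and 15 h. From 8 h to 15 h 8 of the 10 rose and 1 fell, where 51.1% of all genes were called (25.8% higher, 25.3% lower). Under median scaling 7 rose and 1 fell, beside 13.5% of all genes higher and 40.6% lower. Trp53inp1 was higher at 15 h than at 8 h by 1.64 ± 0.17 and Cdkn1a by 1.28 ± 0.17, and the 8 h arrays of both lay below the controls. Gadd45a was higher by 2.49 ± 0.12, Ccng1 by 2.04 ± 0.11, Mdm2 by 1.19 ± 0.13 and Fas by 0.79 ± 0.09. Plk2 fell by 0.99 ± 0.12. Sesn1 did not pass (0.22 ± 0.13, adjusted p = 0.174), and without replicate 2 of the 8 h group it was higher at 15 h by 0.36 (adjusted p = 0.0192). Its sign turned with median scaling (−0.23), in the authors' normalized values (−0.25) and without scaling (−0.28), where it did not pass either. Bbc3 passed by a small margin (0.22 ± 0.09, adjusted p = 0.0404), a call lost without replicate 2 or 3 of either group (0.17 to 0.22), with the mean of its probes (0.02) and without scaling (0.16). Bax was higher by 0.32 ± 0.10 with quantile scaling and at −0.13 ± 0.14 with median scaling.

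From 15 h to 24 h 2 of the 10 rose and 1 fell, where 22.4% of all genes were called (12.2% higher, 10.2% lower), and the same counts held under median scaling (5.44% of all genes higher, 11% lower). Gadd45a was higher at 24 h than at 15 h by 1.82 ± 0.12 (adjusted p = 3.84e-08) and Fas by 0.56 ± 0.09 (adjusted p = 0.000429). Sesn1 fell by 0.71 ± 0.13 (adjusted p = 0.000915). The remaining changes lay between −0.10 for Bbc3 and 0.40 for Cdkn1a. Cdkn1a passed with the mean of its probes (0.64, adjusted p = 0.00461) and within matched chip 2, where 15 h was 1 array (0.75, adjusted p = 0.000207). Mdm2, at 0.23 ± 0.13, passed only without replicate 1 of the 15 h group (0.40, adjusted p = 0.0105). Between 8 h and 24 h 7 rose and 2 fell, where 55.1% of all genes were called (27.6% higher, 27.5% lower), with Gadd45a at 4.31 ± 0.12, Ccng1 at 2.27 ± 0.11 and Plk2 at −1.02 ± 0.12. Under median scaling 6 rose and 2 fell there (13.8% of all genes higher, 47.8% lower).

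**Figure D3:**
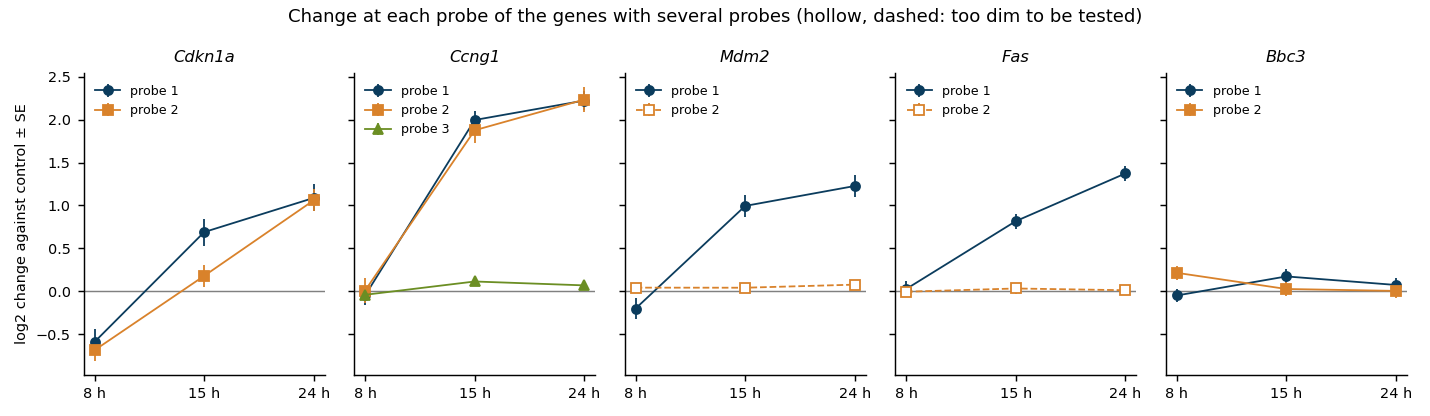
Log2 change against control at 8 h, 15 h and 24 h, with its standard error, for every probe of the 5 genes with more than 1 probe. The bright probes of Ccng1 run together to 2.22 and 2.23 at 24 h and those of Cdkn1a to 1.09 and 1.06. The dimmest Ccng1 probe and the undetected second probes of Mdm2 and Fas (hollow, dashed) stay near 0.

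When each probe was its own feature, 11 of the 14 tested probes of these genes were called at 24 h (52.8% of 14366 probes), 9 at 15 h (47.8%) and 1, the second Cdkn1a probe, at 8 h (0.285%). The 8 h call was lost under the settings named with that probe. Probes of 1 gene share its transcripts and are not replicates. With no scaling between arrays 7 of the 14 were called at 24 h, beside 9555 of all 14366 probes.

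The stretch of 250 bases before the annotated start was searched for motifs in 9 of the 10 genes, which together have 13 such windows in RefSeq on GRCm38.p6 (there is no window for Trp53inp1 in the table used). A p53 half-site, in its usual consensus of 10 letters that reads the same on both strands, was found in 6 of the 13 windows, and in 7.13% of 32841 windows of the same length over all genes. Those 6 belong to Gadd45a, Cdkn1a, Ccng1, Sesn1, Mdm2 and Bax. Sesn1, which fell, has a half-site in its second window and none in its first, and Fas, which rose, has none in its window. Sites outside these 250 bases were not searched, so the matches do not bear on which genes p53 acts on. The windows of 4 genes that rose are shown, with half-sites in capitals.
Gadd45a, chr6:67037408-67037657, minus strand: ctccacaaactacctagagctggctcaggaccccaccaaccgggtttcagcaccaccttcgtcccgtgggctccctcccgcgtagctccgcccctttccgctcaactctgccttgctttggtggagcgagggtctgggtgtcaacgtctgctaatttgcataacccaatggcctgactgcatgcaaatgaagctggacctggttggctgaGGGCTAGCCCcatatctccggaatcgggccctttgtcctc
Cdkn1a, upstream start, chr17:29090729-29090978, plus strand: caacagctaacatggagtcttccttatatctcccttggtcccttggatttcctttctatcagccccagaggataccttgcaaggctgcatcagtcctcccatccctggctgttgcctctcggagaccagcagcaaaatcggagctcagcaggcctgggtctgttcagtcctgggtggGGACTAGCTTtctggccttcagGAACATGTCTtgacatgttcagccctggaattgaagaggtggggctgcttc
Ccng1, chr11:40755287-40755536, minus strand: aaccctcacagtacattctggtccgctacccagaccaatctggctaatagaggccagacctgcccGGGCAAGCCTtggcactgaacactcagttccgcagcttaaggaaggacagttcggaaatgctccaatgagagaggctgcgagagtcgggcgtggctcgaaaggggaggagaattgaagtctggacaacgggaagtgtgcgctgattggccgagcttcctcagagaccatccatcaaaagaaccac
Mdm2, chr10:117710759-117711008, minus strand: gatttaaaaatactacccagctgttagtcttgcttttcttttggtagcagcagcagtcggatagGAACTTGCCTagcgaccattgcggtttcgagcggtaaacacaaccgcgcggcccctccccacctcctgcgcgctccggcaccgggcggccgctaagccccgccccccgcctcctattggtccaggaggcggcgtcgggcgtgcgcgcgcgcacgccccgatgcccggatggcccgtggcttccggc

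The Cdkn1a window holds 2 half-sites that begin 73 and 51 bases before the start, and the others hold 1. The Gadd45a window also holds the octamer ATGCAAAT, once on each strand, 97 and 70 bases before the start. At least 1 octamer is in 1.6% of all windows and in no other window of the 10 genes. The window of Plk2, which fell, holds the cyclic AMP response element TGACGTCA 62 bases before the start (capitals), found in 1.55% of all windows and in none of the other 12.
Plk2, chr13:110394794-110395043, plus strand: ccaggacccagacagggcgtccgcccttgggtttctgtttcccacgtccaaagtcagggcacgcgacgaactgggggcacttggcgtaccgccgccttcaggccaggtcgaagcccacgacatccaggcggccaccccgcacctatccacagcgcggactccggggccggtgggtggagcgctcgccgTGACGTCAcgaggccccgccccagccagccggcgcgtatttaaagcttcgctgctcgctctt

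An AP-1 site, TGANTCA, lies in the Fas window (6.75% of all windows hold one), and the ATF4-type element TGATGNAA in none of the 13 (3.45% of all windows). Both strands were searched, and no match overlaps another. The motifs were picked with these windows in view, and a match of letters is a description, not a site of binding.

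Other genes of the pathway were followed in lists. Of all genes 25.4% were called higher and 24.7% lower at 15 h, and 27.4% and 27.3% at 24 h. At 8 h the shares were 0.145% and 0.289%. Under median scaling they were 12.7% and 41.3% at 15 h, and 13.6% and 48.7% at 24 h. These shares stand beside the counts of every list below. Of 15 tested and 19 listed targets of p53 in arrest, repair and metabolism, 1 fell at 8 h, 7 rose and 1 fell at 15 h and 10 rose and 1 fell at 24 h. Their median change at 24 h was 0.38 (0.01 for all genes), or 0.19 under median scaling (−0.25 for all genes), where 8 rose and 3 fell. Gdf15, a stress-secreted growth factor, was not above background on any control array and was at least 9.16-fold higher at 15 h (adjusted p = 2.23e-09) and at least 19.1-fold higher at 24 h (adjusted p = 2.96e-11). Ephx1, an epoxide hydrolase, fell at 8 h (−0.80 ± 0.17, adjusted p = 0.0476, a call lost under median scaling at −0.83). It rose by 1.40 ± 0.17 at 15 h and by 1.85 ± 0.17 at 24 h. Cyclin D1 (Ccnd1) rose by 1.44 ± 0.11 at 24 h, and Phlda3, which restrains the kinase Akt, by 0.70 ± 0.12 at 15 h. Rprm, named for a block at the G2 phase, fell by 0.62 ± 0.09 and 0.70 ± 0.09.

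Of 10 tested and 15 listed p53 targets of death 5 rose at 15 h, and 5 rose and 1 fell at 24 h, with a median change of 0.31 at 24 h. Under median scaling 4 rose and 2 fell at 15 h, and 3 rose and 3 fell at 24 h. The median at 24 h was then 0.06 (−0.25 for all genes). Ckap2, a spindle protein that p53 induces, rose by 1.41 ± 0.14 at 15 h and by 1.13 ± 0.14 at 24 h. The death receptor gene Tnfrsf10b rose by 0.42 ± 0.07 and 0.68 ± 0.07, and the nuclease gene Aen by 0.55 ± 0.10 at 15 h. Bid, which links death receptors to Bax, rose by 0.62 ± 0.10 at 24 h, a call lost under median scaling (0.10). Cdip1 fell by 0.23 ± 0.08 at 24 h.

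Of 15 tested and 19 listed genes for p53 and its regulators 5 rose and 1 fell at 15 h, and 7 rose and 2 fell at 24 h, or 3 and 3, and 4 and 5, under median scaling. Trp53, the gene of p53 itself, was at 0.00 ± 0.17 at 15 h (−0.42 and not called under median scaling) and rose by 0.93 ± 0.17 at 24 h (adjusted p = 0.000199), a call lost under median scaling (0.33). Rps27l, a ribosomal protein-like gene whose product binds Mdm2, rose by 1.21 ± 0.09 and 1.51 ± 0.09. Nqo1, a quinone reductase that shields p53 from the proteasome, rose by 0.67 ± 0.09 and 0.95 ± 0.09, and the ubiquitin ligase gene Rchy1 by 0.54 ± 0.11 at 15 h (0.11 and not called under median scaling). Trp53bp1, which acts at DNA breaks, fell by 0.96 ± 0.12 and 0.75 ± 0.12, and Usp7, which removes ubiquitin from p53 and Mdm2, by 0.33 ± 0.11 at 24 h.

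**Figure D4:**
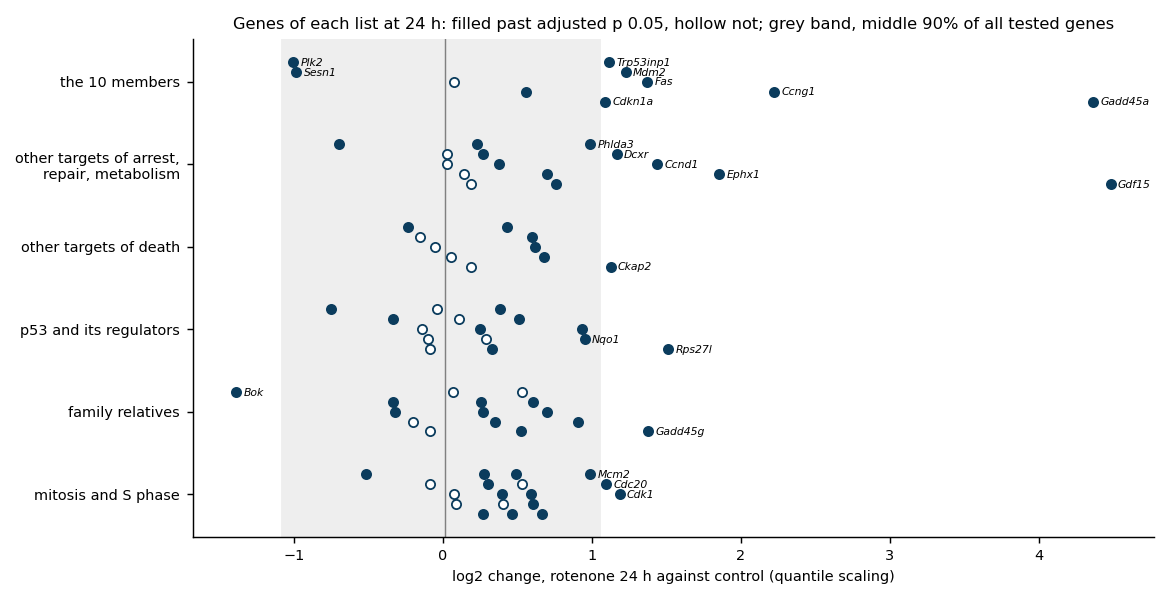
Log2 change at 24 h against control with quantile scaling for the 10 genes and for 5 other lists, 1 point a gene, filled where called. The grey band holds the middle of all 11063 tested genes, from the 5th percentile at −1.08 to the 95th at 1.05. Gadd45a and Gdf15 lie farthest to the right, at 4.36 and 4.48, and Bok farthest to the left at −1.39.

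With quantile scaling, mitosis and S phase genes that p21 is known to repress were called higher more often than lower. Of 18 tested and 20 listed 11 rose and 1 fell at 15 h, and 12 rose and 1 fell at 24 h, with medians of 0.51 and 0.43. Under median scaling 5 rose and 1 fell at 15 h, beside 12.7% of all genes higher and 41.3% lower. At 24 h 3 rose and 2 fell on that scale, beside 13.6% and 48.7% of all genes. The medians were 0.21 and 0.06 (−0.16 and −0.25 for all genes). Cdc20, an activator of the anaphase ligase, rose by 1.29 ± 0.17 and 1.10 ± 0.17, Cdk1, the mitotic kinase gene, by 0.90 ± 0.14 and 1.19 ± 0.14, and the helicase subunit gene Mcm2 by 0.85 ± 0.11 and 0.99 ± 0.11. E2f1, a transcription factor of S phase entry, fell by 0.45 ± 0.09 and 0.51 ± 0.09.

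Relatives in the same gene families did not all follow. Of 15 tested and 16 listed 6 rose and 2 fell at 15 h, and 8 rose and 3 fell at 24 h, or 5 and 2, and 4 and 5, under median scaling. Gadd45g rose by 1.19 ± 0.18 and 1.38 ± 0.18. Gadd45b, not above background on any control array, rose by at least 1.10-fold at 24 h with quantile scaling (adjusted p = 0.000343). Sesn3 rose by 1.38 ± 0.14 at 15 h, when Sesn1 was at −0.28. Plk1 rose by 1.36 ± 0.22 and Plk3 fell by 0.81 ± 0.13 at 15 h, when Plk2 fell by 0.97. Bok, a relative of Bax, fell by 0.71 ± 0.09 and 1.39 ± 0.09. At 24 h Cdkn1b fell by 0.32 ± 0.12 and Ccng2 by 0.34 ± 0.13, whereas Cdkn1c rose by 0.91 ± 0.18 (0.24 and not called under median scaling).

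**Figure D5:**
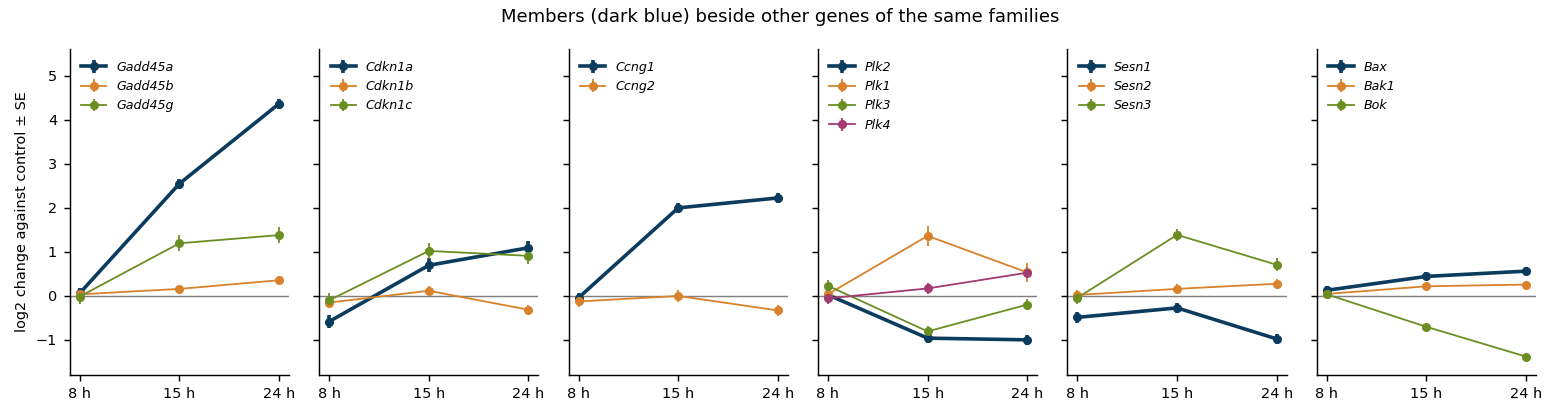
Log2 change against control at 8 h, 15 h and 24 h with its standard error and quantile scaling, for 6 of the 10 genes (dark blue) beside other tested genes of the same families. At 24 h Gadd45a is at 4.36, Gadd45g at 1.38 and Gadd45b at 0.35, while Bax is at 0.56 (−0.02 under median scaling) and Bok at −1.39.

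The genes nearest to each of the 10 were found by the Euclidean distance over 3 log2 changes against control, at 8 h, 15 h and 24 h, among 11063 genes. For Gadd45a they were Gsta2 (distance 0.412) and Anxa3 (0.446), the longest distances of the set. For Ccng1 they were Idh2 (0.0472) and Serpinh1 (0.137), for Plk2 F8a (0.037) and Mast4 (0.0446), and for Mdm2 Bola3 (0.0227) and Calu (0.051). For Fas they were Myl12a (0.0583) and Lama5 (0.0661), for Cdkn1a Efcab14 (0.145) and Ifit2 (0.196), and for Trp53inp1 Mt1 (0.168) and Dap (0.182). For Sesn1 they were Olig2 (0.126), itself one of the oligodendrocyte markers, and Dnajc12 (0.169). For Bax they were Zfp809 (0.0253) and Ipo9 (0.0401), and for Bbc3 Adtrp (0.0137) and Olfr1392 (0.0204).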

How the data were processed

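Total RNA of 13 samples was labelled with biotin and hybridised to Illumina mouse arrays, per the labels. The authors deposited the bead signal of each probe as an intensity, 1 column for each array, unscaled. A second deposited table, a gene profile made with BeadStudio without normalization per the file headers, holds a detection score per gene, a fraction equal to 1 less the detection p. The authors' normalized values, used here as an alternative, are a ratio of signal to the array's median and then to the median of the controls, found by recomputing them (largest relative difference 3.75e-07).

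Of 24613 probes with a signal 20514 were named through their RefSeq accession and 2557 through the description, 470 carry a symbol not in the reference and 1072 have none. Each sample was matched to the profile array that holds the same signals (tolerance 0.05) to read its detection. In all 13 samples that array carries the label of another replicate of the same group, so groups are the same either way. Of the profile, 3 arrays belong to no sample here, and 102 per-array columns were not used. A probe entered if 3 or more arrays had a detection p below 0.05 (14366 probes, 13876 with a symbol), and the brightest kept probe stood for a gene.

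Signals were corrected with normexp (offset 50), quantile scaled and log2 transformed, and tested with limma 3.58.1 in R 4.3.3 in 1 fit of all 4 groups (eBayes with trend, 9 residual degrees of freedom before moderation, Benjamini-Hochberg over 11063 genes per comparison, threshold 0.05). The fit was tested on simulated data. A level not above background in a group is given as a bound, with quantile scaling only. It is the bright group's mean over the higher of the dim group's own signal and its arrays' lowest detected signal. Errors of changes are standard errors of that fit.

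Each result was recomputed with median scaling, with no scaling, from the authors' values, without background correction (offset 16), with the detection filter dropped or set at 0.01, with a gene's probes averaged, with the chip or the replicate number as a block, within single chips, from the compared groups alone, and without each array in turn. The genes named are the 10 targets with all their probes, up to 3 called genes with the smallest p in each direction from each list at 15 h and at 24 h (all called genes at 8 h), and 2 nearest genes for each target. The genes, the lists and the rule were chosen with earlier results of these data known. Promoter sequences are those of RefSeq.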

Additional observations from a re-analysis of the deposited data

Results flagged for a closer look

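On the quantile-scaled log2 scale 1 of 4 control arrays stood apart for Fas and 1 for Bbc3. For Fas replicate 1 was at 6.30 and the others at 6.44, so that the gap took 0.959 of the controls' range, and for Bbc3 replicate 1 was at 6.45 and the others at 6.24 to 6.27 (0.871 of the range). Chance alone marks about 5% of such groups.

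Levels differed between rotenone times in the direct test for the genes below, and drug and time in culture cannot be told apart in it. From 8 h to 15 h the log2 level differed for Gadd45a (2.49), Cdkn1a (1.28), Ccng1 (2.04), Plk2 (−0.99), Mdm2 (1.19), Trp53inp1 (1.64), Fas (0.79), Bbc3 (0.22, a call lost in 13 alternatives) and Bax (0.32, but −0.13 and not called under median scaling). From 15 h to 24 h it differed for Gadd45a (1.82), Sesn1 (−0.71) and Fas (0.56). From 8 h to 24 h it differed for Gadd45a (4.31), Cdkn1a (1.68), Ccng1 (2.27), Plk2 (−1.02), Sesn1 (−0.49), Mdm2 (1.43), Trp53inp1 (1.69), Fas (1.35) and Bax (0.43, but −0.15 and not called under median scaling).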

How the results depend on the processing

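No p53 target passed at 8 h, but with the mean of probes 1 did (Cdkn1a, −0.64, beside 0.461% of all genes). Leaving out single arrays gave 0 to 2 (0.0904% to 1.66% of all genes). Within matched chip 2, where 8 h was 1 array, Sesn1 was at −0.56, Trp53inp1 at −0.75 and Mdm2 at −0.32. From 15 h to 24 h 3 passed (22.4% of all genes). Each single chip held 1 array of 15 h or of 24 h. Within single chips Gadd45a was at 1.75 to 1.93, Fas at 0.48 to 0.60 and Sesn1 at −0.88 to −0.52. The calls of Fas and Sesn1 were lost within some chips. Of the 14 tested probes 11 were called at 24 h, and 7 without scaling (7584 and 9555 of all 14366 probes). Signs turned for Bax at 15 h (−0.00070 under median scaling, −0.090 without scaling) and at 24 h (−0.018 and −0.15), and from 8 h to 15 h (−0.13, −0.18 and, in the authors' values, −0.14) and to 24 h (−0.15, −0.24 and −0.094). The change of Plk2 from 15 h to 24 h, −0.04, was 0.28 within matched chip 2. Quantile and median scaling differ where the arrays' signals differ in spread and not only in median. Which is nearer the RNA per cell was not tested.

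Over the 10 targets and all comparisons, each called change was refitted without each array in turn. In 490 of these 494 refits it stayed called with the same sign, the other 4 being Bbc3 from 8 h to 15 h. Refits of 1 change share most of their arrays and are not separate evidence. Under the other alternatives 527 of 570 refits kept call and sign, 33 lost the call and 10 turned sign. The count of all genes called at 8 h, 48, was 3 within the labels' chip 1, 3 within matched chip 1, 0 within the labels' chip 2 (limma), 1458 within matched chip 2, 17 with only the groups compared and 10 to 184 without single arrays (10 without replicate 1 or 3 of the 8 h group, 184 without replicate 1 of the 15 h group). At 15 h it was 3626 within the labels' chip 1 and 3519 within matched chip 1, and 5544 in all. It was lower within the labels' chip 2 and higher within matched chip 2, each with 1 array of that time. At 24 h it was 4705 within the labels' chip 2 and 6991 within matched chip 2, and 6053 in all. It was lower within the labels' chip 1 and matched chip 1, each with 1 array of that time. From 15 h to 24 h it was 363 to 5045 within single chips, and 2479 in all. From 8 h to 15 h it was 3847 within the labels' chip 1 and 4285 within matched chip 1, and 5654 in all. It was lower within the labels' chip 2 and higher within matched chip 2, each with 1 array of each time. From 8 h to 24 h it was 6093 in all, and each single chip held 1 array of 8 h or of 24 h. It was higher within matched chip 2 and lower within the other chips.

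The deviations of samples that share a replicate number in the labels had correlations from −0.12 to 0.22 over 18 pairs (5 over 0.1). For 45 other pairs they ran from −0.26 to 0.20 (6 over 0.1), and the numbers were not taken as pairs. Pairing by the replicate number of the matched array was not tried, so a pairing is not excluded. With the replicate number as a block 17 genes were called at 8 h, and Bbc3 from 8 h to 15 h lost its call (0.22, adjusted p = 0.0625). No other call of the 10 targets as genes changed with the block. Of their 14 probes 0 were called at 8 h with the block, against 1 without it (19 and 41 of all 14366 probes). From 8 h to 15 h 10 were called with the block, against 12 (6917 and 6955 of all 14366 probes).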
